A study of Oryza sativa with 23 samples.

Results

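Roots of the rice line IR64-Tr-E2, which was made to overexpress the transcription factor OsNAM12.1, were compared with roots of its parent cultivar IR64 (IR64-WT) over a drought and a well-watered treatment together. The comparison took every array labelled with either cultivar, 11 of the 23 arrays of the series. IR64-Tr-E2 had 3 arrays under drought and 2 when well-watered (replicates 1 and 3), and IR64-WT had 3 and 3. A well-watered IR64-Tr-E2 array of replicate 2 was not analysed here. The other 12 arrays, of the cultivar Vandana and its near isogenic line NIL-481-B, entered the normalization alone unless they are named.

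All plants of the comparison shared the IR64 background and grew in soil-filled cylinders. The well-watered treatment kept the soil at 1.2 times field capacity, drought came from a drydown starting at 75% of it, and roots were taken 25 days after sowing. IR64-Tr-E2 is a single event with 1 copy of the transgene, homozygous, so that every difference described here was seen in 1 line. What belongs to the transgene and what to the line otherwise cannot be told apart. Its transgene is the coding sequence of the Way Rarem allele of OsNAM12.1, and the line keeps its own IR64 copy of the gene. The promoter that drives the transgene is not given in the sources used here.

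NAC proteins, of which the no apical meristem (NAM) proteins are a branch, are plant transcription factors that bind DNA through a conserved domain at their amino terminus, and several of them are known from drought responses and from root and wall development. OsNAM12.1 lies in qDTY12.1, a stretch of rice chromosome 12 known for its effect on grain yield under drought. An overexpression line is used to ask which other genes move when such a factor is raised, inside the region and elsewhere in the genome.

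Each array gave Cy3 brightness for 1 probe per locus, and every level below is a normalized log2 signal, so that a difference of 1 is a doubling. A level of one locus cannot be set against that of another. The line difference is IR64-Tr-E2 minus IR64-WT, fitted with limma over the 11 arrays with treatment as a block, and its interval is the 95% confidence interval. A probe was kept if all arrays of any 1 of the 4 groups had it well above background, which held for 26161 of 52901 probes. Nothing in the sources says whether the plants of a replicate were pooled, so the tests measure the spread between these arrays, whatever its source. The RNA came from whole roots, so fewer cells of a type and less RNA per cell cannot be told apart.

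The overexpressed gene itself, OsNAM12.1 (LOC_Os12g29330), was measured well above background on all 11 arrays. Under drought its level was 6.21, 7.06 and 7.22 in IR64-Tr-E2 and 7.0, 6.58 and 4.88 in IR64-WT. When well-watered it was 7.98 and 7.56 in IR64-Tr-E2 and 7.35, 7.36 and 7.45 in IR64-WT. The lines overlapped under drought, where the lowest of the 6 values was the third IR64-WT array, and lay apart by a narrow margin when well-watered. The line difference was 0.55 (SE 0.36, interval -0.24 to 1.33), a fold of 1.46, and did not pass the test (limma, Benjamini-Hochberg adjusted p = 1.00, unadjusted p = 0.155).

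On the 3 slides that held a drought array of each line, the OsNAM12.1 difference was -0.79, 0.47 and 2.34, and it was 0.12 on the 1 slide with a well-watered array of each. Without the third drought array of IR64-WT the line difference was 0.21. In both lines together the gene fell by 1.1 under drought (limma, Benjamini-Hochberg adjusted p = 0.0293). The probe sequence is not known, and the probe may read the native transcript, the transgene or both, so the 2 sources cannot be told apart.

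Across all kept loci the line accounted for little of the spread between arrays. Treatment took 51.6% of the total sum of squares, line 3.90%, the line by treatment term 4.92% and arrays within groups 39.6%. No locus passed the test for the line difference (limma, 0 of 26161 after Benjamini-Hochberg adjustment, 0%), and the smallest adjusted p was 0.430. The methods' rule of more than 2-fold with Bonferroni adjustment also gave 0. At an unadjusted p under 0.05, 365 loci were higher in IR64-Tr-E2 (1.40%) and 120 lower (0.459%). When the arrays were instead aligned at the 75th percentile, the split was 237 higher and 145 lower. Without the filter on background it was 870 higher and 629 lower, of 52883 probes. For drought against well-watered in the same fit, 10562 loci passed (40.4%), 6139 higher and 4423 lower.

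The kept loci were not drawn evenly from the groups, since 3098 of them passed the filter on background only through the drought arrays of IR64-Tr-E2 and 90 only through those of IR64-WT. The share of spots well above background lay between 35.3% and 64.2% on the 11 arrays, and both extremes were well-watered IR64-WT arrays. The median interval of a line difference reached 0.69 to either side, a fold of 1.62. For 62.0% of the kept loci the interval lay wholly within 2-fold, and this share was 34.8% among the dimmest and 82.8% among the brightest loci when they were split by mean level into 3 equal parts. The arrays of different lines in the same treatment correlated with a median r of 0.921 across loci, and arrays of the same group with a median r of 0.916.

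**Figure D1:**
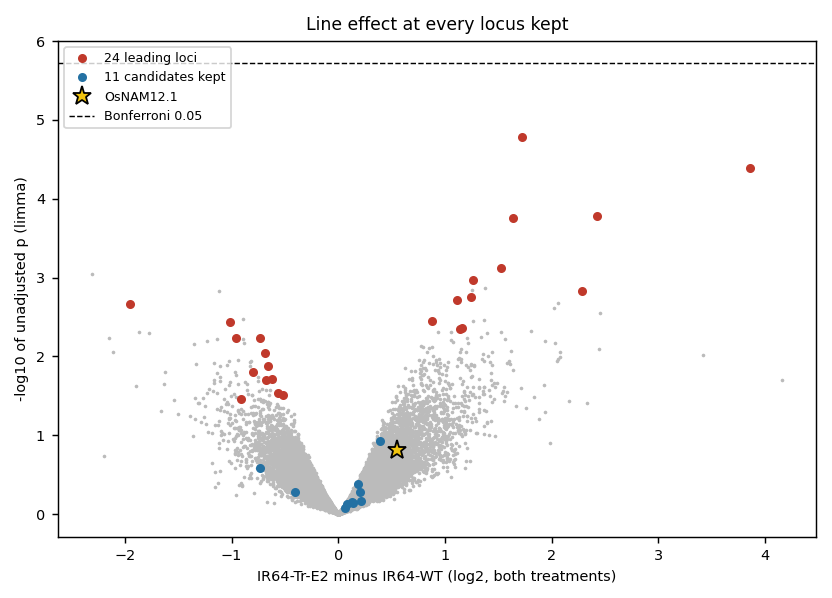
The line difference over both treatments (x axis, log2) against -log10 of the unadjusted limma p (y axis) at all 26161 kept loci (grey), with the 24 leading loci in red, the 11 kept qDTY12.1 candidates in blue and OsNAM12.1 as a star. No point reaches the dashed line, the Bonferroni threshold, and the candidates sit between -0.74 and 0.55.

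The loci that set the lines apart most steadily were sought among those whose arrays did not overlap between lines in either treatment. There were 42 such loci with IR64-Tr-E2 higher (0.161% of those kept) and 22 with it lower (0.0841%). The filter leans towards the first direction, since 3098 loci passed only through the drought arrays of IR64-Tr-E2 and 90 only through those of IR64-WT. How many of the 42 passed in this way was not counted, so this split says nothing about the line. By comparison, 45 loci were apart with IR64-Tr-E2 higher under drought and lower when well-watered, and 24 the other way round. The 12 of smallest p in each direction are described below. They were picked by their separation and p, so that their values are a description, and none of them passed the test after adjustment. Apart from 1 locus, neither the files nor the study's tables pair them with a gene name, and they are given by locus number.

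LOC_Os01g24820 had the smallest p of all loci. Its level under drought was 7.28, 7.68 and 7.79 in IR64-Tr-E2 and 5.58, 5.45 and 6.55 in IR64-WT. When well-watered it was 3.17 and 3.10 in IR64-Tr-E2 and 1.27, 1.25 and 1.75 in IR64-WT, and none of these 5 signals was well above background. The locus thus stood clear of background in both lines under drought alone, with IR64-Tr-E2 above every IR64-WT array. The line difference was 1.72 (interval 1.16 to 2.27, limma with Benjamini-Hochberg adjusted p = 0.430), and it lay between 1.24 and 2.23 on the 4 pairs of arrays that shared a slide and a treatment. Its drought effect over both lines was 4.44 (limma, adjusted p = 5.01e-07).

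LOC_Os07g32710 had the largest line difference of the 24, 3.86 (interval 2.49 to 5.22), or 14.5-fold, with an adjusted p of 0.538 in limma after Benjamini-Hochberg adjustment. Under drought its level was 5.80, 6.24 and 5.64 in IR64-Tr-E2 and 3.89, 1.67 and 1.26 in IR64-WT. When well-watered it was 7.62 and 6.78 in IR64-Tr-E2 and 5.26, 2.29 and 1.60 in IR64-WT. The signal was well above background on 5 of 5 IR64-Tr-E2 arrays and on 2 of 6 IR64-WT arrays, the replicate 1 array of each treatment. The fold therefore rests in part on signals near background. On the 12 arrays of the other background, the 4 group means lay between 2.04 and 4.34. Single arrays spread more widely, from 1.73 to 7.17 in well-watered Vandana. The 7.17 there, on replicate 2, lay within the range of the well-watered IR64-Tr-E2 arrays.

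A second locus of the 12, LOC_Os07g32680, lies within 5 probes of LOC_Os07g32710 in locus order on chromosome 7. It was bright in both lines, at 11.39, 10.36 and 9.93 under drought and 11.65 and 11.16 when well-watered in IR64-Tr-E2, against 9.07, 9.55 and 8.80 and then 10.64, 9.92 and 10.45 in IR64-WT. Its line difference was 1.27 (interval 0.62 to 1.92). Of the 10 nearest kept neighbours of LOC_Os07g32710, this was the only one with an unadjusted p under 0.05.

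LOC_Os03g19610 was at 5.63, 6.73 and 5.75 under drought and 7.67 and 7.40 when well-watered in IR64-Tr-E2. In IR64-WT it was at 3.97, 3.93 and 3.71 under drought and 6.59, 4.18 and 3.62 when well-watered. The drought arrays of the lines stood well apart, while the first well-watered IR64-WT array lay nearer to IR64-Tr-E2 than to its own group. The line difference was 2.42 (interval 1.43 to 3.42).

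LOC_Os03g27810 was well above background on all 11 arrays. Its level was 8.01, 8.0 and 7.64 under drought and 9.45 and 9.18 when well-watered in IR64-Tr-E2, against 6.19, 6.94 and 5.54 and then 8.48, 7.06 and 7.54 in IR64-WT. The difference was nearly the same in the 2 treatments, 1.66 under drought and 1.62 when well-watered, and 1.64 over both (interval 0.96 to 2.32). LOC_Os11g34710 had a line difference of 1.52 (interval 0.78 to 2.27), with signals well above background on 5 of 5 arrays of IR64-Tr-E2 and 3 of 6 of IR64-WT.

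LOC_Os12g43490 is the 1 locus of the 24 with a description in the study's table, a putative thaumatin, a family of small proteins known from plant defence. Its level was 7.22, 7.31 and 6.58 under drought and 7.74 and 7.67 when well-watered in IR64-Tr-E2. In IR64-WT it was 5.36, 4.37 and 5.97 under drought and 6.99, 3.43 and 4.03 when well-watered. Every IR64-Tr-E2 array was above every IR64-WT array of its treatment, and the line difference was 2.29 (interval 1.06 to 3.51). Its drought effect was -0.06 (limma, Benjamini-Hochberg adjusted p = 0.936). The study placed this locus in a list it drew from these arrays, so its direction in either treatment is not independent evidence.

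The other 5 loci, LOC_Os09g18340, LOC_Os09g10780, LOC_Os02g19410, LOC_Os07g17010 and LOC_Os02g53430, had line differences between 0.88 and 1.24. LOC_Os02g19410 passed the filter on background only through the drought arrays of IR64-Tr-E2, and LOC_Os07g17010 only through the well-watered arrays of that line.

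**Figure D2:**
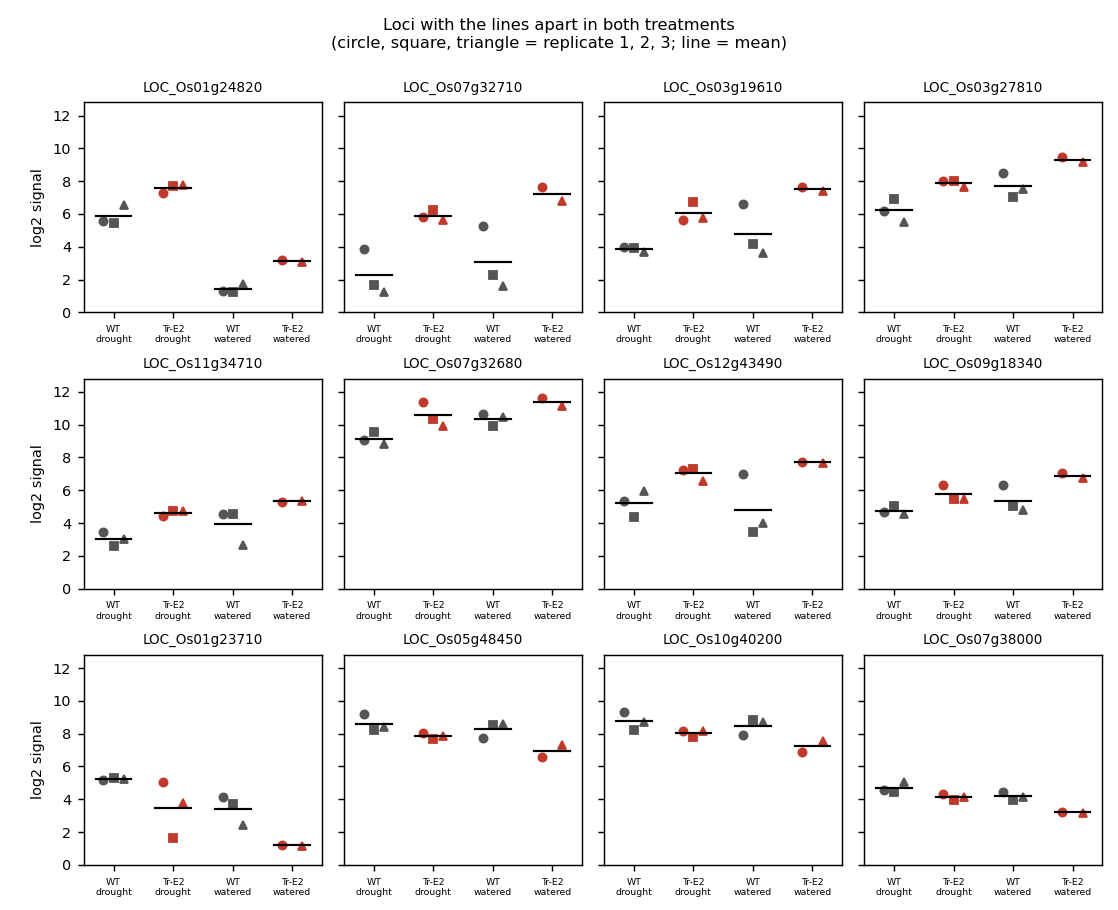
Log2 signal (y axis) on each array at 8 of the 12 leading higher loci and 4 of the 12 leading lower loci, by line and treatment (x axis), with IR64-WT in grey, IR64-Tr-E2 in red, a symbol for each replicate number and a bar at the group mean. In the upper panels the grey circle of well-watered IR64-WT replicate 1 often lies nearest to the red points, as at LOC_Os07g32710 with 5.26 against 2.29 and 1.60 on the other 2 arrays.

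Among the lower loci, LOC_Os01g23710 had the largest fitted difference, -1.96 (interval -3.06 to -0.85), which rests in part on signals near background. Its level under drought was 5.07, 1.63 and 3.79 in IR64-Tr-E2 and 5.16, 5.32 and 5.22 in IR64-WT. Of the 3 IR64-Tr-E2 drought arrays, 2 were well above background. When well-watered it was 1.22 and 1.17 in IR64-Tr-E2, not well above background on either array, and 4.11, 3.69 and 2.46 in IR64-WT, with 2 of 3 well above it. The bound allows no fold when well-watered, so that gap is not a measured difference. On the first slide the 2 drought arrays differed by only -0.10, and the difference came from the other arrays.

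LOC_Os05g48450 on chromosome 5 and LOC_Os10g40200 on chromosome 10 were bright, and their differences ran side by side. LOC_Os05g48450 was at 8.03, 7.66 and 7.88 under drought and 6.58 and 7.33 when well-watered in IR64-Tr-E2, against 9.20, 8.22 and 8.40 and then 7.75, 8.53 and 8.59 in IR64-WT, a difference of -1.01 (interval -1.63 to -0.40). For LOC_Os10g40200 the difference was -0.96 (interval -1.58 to -0.33). On the 4 pairs of arrays on shared slides the differences were -1.17, -0.56, -0.52 and -1.26 at the first locus and -1.17, -0.44, -0.54 and -1.17 at the second. Whether both probes read the same transcript was not tested, since their sequences are not known.

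The remaining 9 lower loci had line differences between -0.91 and -0.52. LOC_Os12g33944 was at 10.09, 9.46 and 10.23 under drought and 10.08 and 9.81 when well-watered in IR64-Tr-E2, and between 10.38 and 10.58 on all 6 arrays of IR64-WT. This narrow gap gave a difference of -0.52 (interval -0.99 to -0.06). LOC_Os01g57968 differed by -0.68 (interval -1.17 to -0.20) with signals well above background on all 11 arrays. At LOC_Os07g38000, LOC_Os04g35650, LOC_Os08g08380 and LOC_Os06g08600 neither well-watered array of IR64-Tr-E2 was well above background. As a bound, well-watered IR64-WT was at least 1.39-fold higher at LOC_Os08g08380, while the bounds of 1.004 at LOC_Os07g38000 and 1.02 at LOC_Os04g35650 show next to no fold and LOC_Os06g08600 allows none.

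The array of well-watered IR64-WT labelled replicate 1 was the only one of the 11 on its slide, so slide and array cannot be told apart for it. At 8 of the 12 leading higher loci its level was nearer to the well-watered IR64-Tr-E2 mean than to the mean of the other well-watered IR64-WT arrays, and at 2 of the 12 lower loci. Without this array 3 loci passed the test in limma after Benjamini-Hochberg adjustment, each with IR64-Tr-E2 higher. These were LOC_Os07g32710 (4.27, adjusted p = 0.0422), LOC_Os03g19610 (2.75, adjusted p = 0.0422) and LOC_Os02g06600 (3.04, adjusted p = 0.0406). The array left out is the IR64-WT one nearest to IR64-Tr-E2 at these loci when well-watered, at 5.26, 6.59 and 5.74. Leaving it out widens their differences, so this count is a description and no support for a line difference. A Vandana array, well-watered replicate 2, was also nearer to IR64-Tr-E2 at 9 of the 12 higher and 5 of the 12 lower loci. On that array LOC_Os03g19610 was at 8.51, LOC_Os03g27810 at 9.35 and LOC_Os12g43490 at 7.95. The well-watered IR64-Tr-E2 means at these loci were 7.54, 9.31 and 7.70.

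The same array stood out at loci picked on the drought arrays alone. Of the 50 loci of smallest p there whose lines did not overlap under drought, 45 were higher in IR64-Tr-E2. The filter favours this direction, since 3098 loci passed only through the drought arrays of IR64-Tr-E2 and 90 only through those of IR64-WT. How many of the 50 passed in this way was not counted, so the 45 say nothing about the line. On the well-watered arrays, which took no part in the choice, IR64-WT replicate 1 lay on the IR64-Tr-E2 side of the mean of the 5 well-watered arrays at 42 of the 50 loci, and replicates 2 and 3 at 15 and 9. Of the IR64-Tr-E2 arrays, replicate 3 lay on its own line's side at 41 of the 50 and replicate 1 at 16. The mean difference when well-watered had the direction of the drought difference at 27 of the 50. Measured by nearness to the IR64-Tr-E2 mean, IR64-WT replicate 1 was nearer at 40 of the 50 loci and the Vandana array, well-watered replicate 2, at 38. The arrays were kept under their labels, on which every well-watered line difference here rests, and no other labelling was fitted.

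LOC_Os12g35470, described in the study's table only as an expressed protein, showed this most clearly. Under drought it was at 10.75, 9.72 and 10.32 in IR64-Tr-E2 and at 4.57, 1.47 and 5.28 in IR64-WT. In the well-watered arrays it was at 1.74 and 8.19 in IR64-Tr-E2 and at 8.49, 1.20 and 1.48 in IR64-WT. The drought arrays lay far apart by line, while among the well-watered arrays 1 of each line was bright. The locus swung as widely within Vandana, from 1.31 to 10.21 over its 3 drought arrays and from 1.31 to 8.20 over its 3 well-watered arrays. The difference, 6.49 under drought, was 1.25 in the well-watered arrays and 4.16 over both (interval 0.77 to 7.54, limma with Benjamini-Hochberg adjusted p = 1.00).

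LOC_Os01g62740, another expressed protein of that table, was at 7.83, 7.17 and 7.39 under drought in IR64-Tr-E2 and at 1.19, 1.34 and 2.57 in IR64-WT, where no array was well above background. Under drought IR64-Tr-E2 was thus higher by at least 15.3-fold, a bound that puts each dim array at its own lowest signal still well above background. In the well-watered arrays it was at 1.26 and 5.26 in IR64-Tr-E2 and at 5.77, 1.21 and 1.37 in IR64-WT, again with 1 bright array of each line. Within Vandana under drought it ranged from 1.24 to 7.75. In a fit of the drought arrays alone it was the 1 locus past the threshold (5.77, limma with Benjamini-Hochberg adjusted p = 0.0108). It had passed the filter on background only through the group in which it is high, and both of these loci were chosen after their values were seen, so these values are a description.

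LOC_Os12g05290, a putative retrotransposon protein, followed the same pattern. It was set beside the other loci after its values were seen, so it is no independent repeat of the pattern. It was at 6.19, 5.52 and 5.46 under drought in IR64-Tr-E2 and at 1.19, 2.31 and 1.95 in IR64-WT, at least 4.58-fold higher by the same bound. In the well-watered arrays it was at 1.08 and 5.56 in IR64-Tr-E2 and at 6.04, 1.63 and 1.19 in IR64-WT.

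At LOC_Os02g06600, a putative receptor-like protein kinase precursor, both well-watered IR64-Tr-E2 arrays were bright. Its level was 6.31, 5.43 and 5.82 under drought and 4.52 and 4.99 when well-watered in IR64-Tr-E2, against 3.70, 2.17 and 2.34 and then 5.74, 1.49 and 2.16 in IR64-WT. No drought array of IR64-WT was well above background, and the bound was at least 4.69-fold. The difference over both treatments was 2.45 (interval 1.01 to 3.89). With the well-watered replicate 1 arrays of both lines left out, a setting chosen after seeing the data, these 4 loci and no other were past the threshold (limma, Benjamini-Hochberg adjusted p from 0.00225 to 0.0358). The arrays left out are those seen to go against the line difference at these loci, and all but LOC_Os02g06600 passed the filter only through the drought arrays of IR64-Tr-E2, so this count is a description and no support for a line difference.

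**Figure D3:**
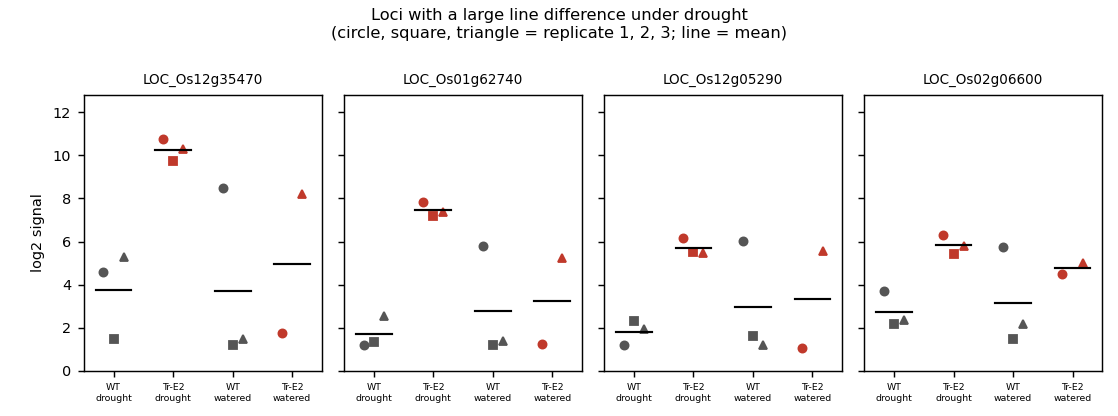
Log2 signal (y axis) on each array at 4 loci with a large line difference under drought, by line and treatment (x axis), with IR64-WT in grey, IR64-Tr-E2 in red, a symbol for each replicate number and a bar at the group mean. The 4 loci were chosen for this figure after their values were seen. In the well-watered groups the IR64-WT circle (replicate 1) is high in all 4 panels, and the IR64-Tr-E2 circle is low in 3 of them, for example 8.49 and 1.74 at LOC_Os12g35470.

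The study's tables of candidate genes and primers name 15 loci inside qDTY12.1, OsNAM12.1 among them, and they are called candidates here. OsEP112.1 stands only among the primers, and the name OsWAK12.1 is given to both LOC_Os12g29434 and LOC_Os12g29430, the second of which is called OsWAK125 below. Of the 15, 11 passed the filter on background, 9 with a higher and 2 with a lower line difference, and 0 had an unadjusted p under 0.05 (limma, against 1.85% of all kept loci). The median line difference of the 11 was 0.14, beside 0.01 over all kept loci. None had its lines apart in both treatments, against 0.245% of all kept loci. Lines were apart under drought at 1 of the 11 (4.88% of all kept loci) and when well-watered at 2, OsNAM12.1 and OsAH12.1 (12.6%). OsCESA1012.1, OsGdpD12.1, OsWAK12.1 and OsTFP12.1 were not well above background on every array of any group.

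OsARF12.1 (LOC_Os12g29520), an auxin response factor, differed by 0.22 (interval -0.92 to 1.35), a range that holds changes of more than 2-fold in one direction. OsAFC212.1 (LOC_Os12g27520), similar to kinases that act on splicing factors, differed by 0.20 (interval -0.48 to 0.89). OsAH12.1 (LOC_Os12g28270), similar to a deaminase of S-adenosyl homocysteine, was at 7.78, 7.87 and 7.41 under drought in IR64-Tr-E2 and at 7.37, 7.82 and 7.71 in IR64-WT. When well-watered it was at 7.63 and 7.74 against 7.60, 7.19 and 7.20, so that the lines were narrowly apart, by 0.35 in the mean. Over both treatments its difference of 0.18 (interval -0.28 to 0.65) lay within 2-fold.

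OsMtN312.1 (LOC_Os12g29220), of the family that holds the SWEET sugar transporters, was the 1 candidate with its lines apart under drought. Its level there was 5.63, 6.09 and 6.02 in IR64-Tr-E2 and 5.40, 4.89 and 5.40 in IR64-WT, a difference of 0.68. The well-watered difference was 0.02, with neither IR64-Tr-E2 array well above background. Over both treatments it was 0.39 (interval -0.12 to 0.89), which did not pass the test. The locus passed the filter on background only through the drought arrays of IR64-Tr-E2, the group in which it was highest. Its separation there is therefore a description.

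OsWAK125 (LOC_Os12g29430), described in the study's table as an OsWAK receptor-like protein, had the largest difference of the candidates, -0.74, with a wide interval of -2.09 to 0.62. It was at 6.65, 6.81 and 6.36 under drought and 1.36 and 4.70 when well-watered in IR64-Tr-E2, and at 6.29, 7.30 and 5.49 and then 5.61, 3.97 and 5.41 in IR64-WT. A single low array, the first well-watered one of IR64-Tr-E2, set the sign, and without it the difference was 0.07. OsPOLE1912.1 (LOC_Os12g28770) differed by 0.13 (interval -0.62 to 0.88).

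OsGDP12.1 (LOC_Os12g29400), a GRAM domain protein, was the candidate with the strongest response to treatment and showed little by line. It was at 11.95, 12.43 and 12.92 under drought in IR64-Tr-E2 and at 12.24, 10.76 and 12.61 in IR64-WT, and between 7.39 and 8.30 on all 5 well-watered arrays. The drought effect was 4.28 (limma, Benjamini-Hochberg adjusted p = 9.02e-06) and the line difference 0.14 (interval -0.67 to 0.94). Of the 11 kept candidates, 6 rose and 2 fell under drought over both lines (limma, Benjamini-Hochberg adjusted p under 0.05, against 23.5% and 16.9% of all kept loci). The 2 that fell were OsNAM12.1 and OsPOLE1912.1.

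OsDR12.1 (LOC_Os12g27830), described as a dehydrogenase or reductase, differed by -0.41 (interval -1.76 to 0.95), with no well-watered array of either line well above background. OsCDP12.1 (LOC_Os12g26940), a CHASE domain protein, and OsEP112.1 (LOC_Os12g29340) differed by 0.08 (interval -0.44 to 0.59) and 0.06 (interval -0.53 to 0.65). The whole qDTY12.1 range, taken by locus number on chromosome 12, held 273 probes, of which 99 were kept. Their median line difference was 0.01, the same as over all kept loci to 2 decimals, with 2 higher and 0 lower at an unadjusted p under 0.05 (limma, near the 1.40% and 0.459% of all kept loci) and 0 after Benjamini-Hochberg adjustment. The 2 were LOC_Os12g27190 (1.32) and LOC_Os12g29420 (0.96). The first passed the filter on background only through the drought arrays of IR64-Tr-E2 and the second only through its well-watered arrays. Each was highest in that group, so these 2 are a description.

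**Figure D4:**
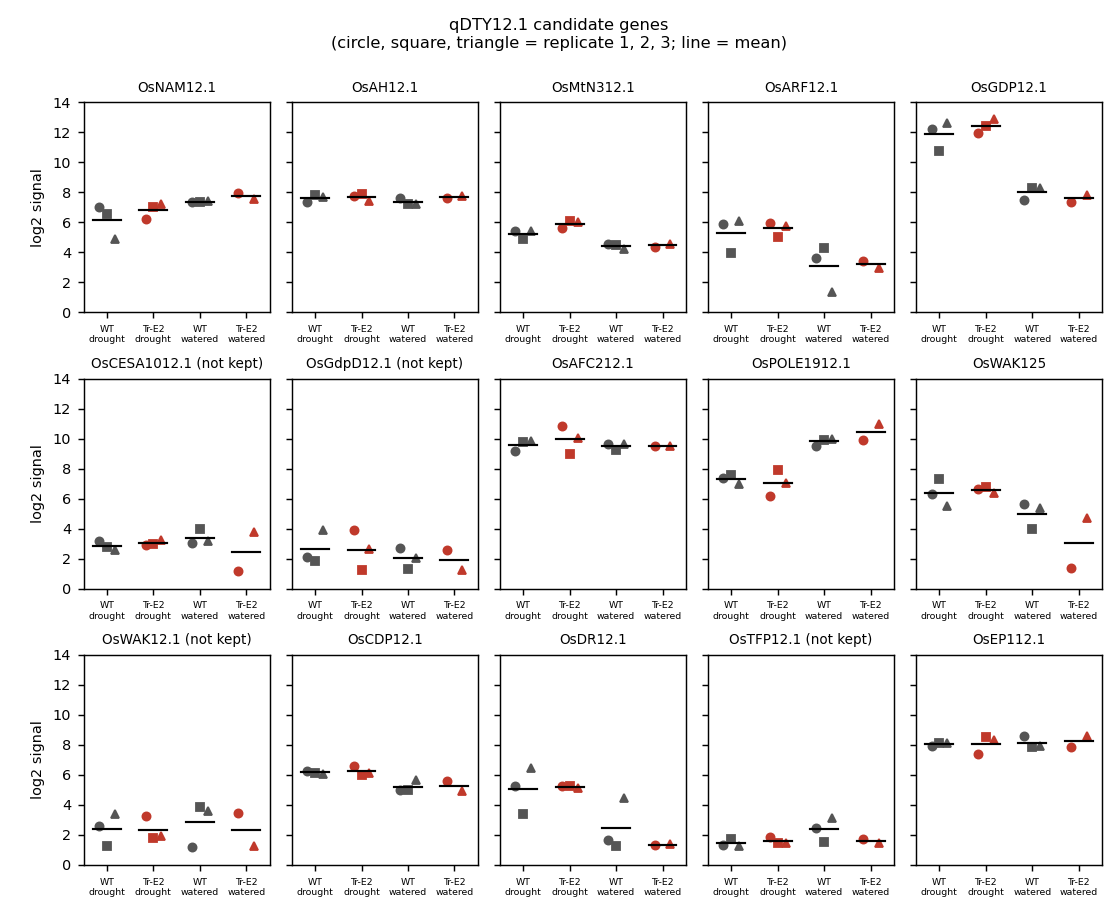
Log2 signal (y axis) on each array at the 15 qDTY12.1 candidates, by line and treatment (x axis), with IR64-WT in grey, IR64-Tr-E2 in red, a symbol for each replicate number and a bar at the group mean. Red and grey overlap in most panels, while OsGDP12.1 is near 12 under drought and near 8 when well-watered in both lines.

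Of the 23 genes elsewhere in the genome that the study tied to the candidates, 22 were on the array and 17 were kept, 12 with a higher and 5 with a lower line difference. Their line differences ranged from -0.34 to 0.72 with a median of 0.10. The 1 with an unadjusted p under 0.05 (against 1.85% of all kept loci) was LOC_Os05g44270, which the study lists as a VQ protein, a group of partners of WRKY factors. It was at 4.53, 5.43 and 5.05 under drought and 5.93 and 5.06 when well-watered in IR64-Tr-E2, against 4.79, 4.6 and 4.38 and then 4.70, 4.63 and 3.85 in IR64-WT. The lines overlapped under drought and were apart when well-watered, and the difference of 0.72 (interval 0.10 to 1.34) did not pass the test after adjustment.

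Further groups were listed by their locus numbers from general knowledge of rice, and the study's tables describe only some of the aquaporins, dehydrins and phosphatases among them, so members are given by number. Counts of loci at an unadjusted p under 0.05 stand against 1.85% of all kept loci (1.40% higher and 0.459% lower), and counts of higher loci against 13465 of 26161. In none of them did a locus pass the test after Benjamini-Hochberg adjustment in limma. Of the 8 kept loci listed as plasma membrane aquaporins, the channels that carry water into root cells, 6 were higher and 2 lower, between -0.12 and 0.30. The median of these was 0.61 under drought and -0.60 when well-watered, so that the 2 treatments cancelled in the median over both, 0.08. This pattern was not particular to them. The medians were 0.52 and -0.42 for tonoplast aquaporins, 0.40 and -0.24 for cellulose synthases and 0.37 and -0.21 for reference genes. Other lists kept 1 sign, such as the WRKY factors with 0.48 and 0.20. The difference between treatments did not pass the test at any locus (limma, interaction, 0 of 26161 after Benjamini-Hochberg adjustment, 0%, and 684 or 2.61% at an unadjusted p under 0.05).

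The 8 loci listed as dehydrins and other late embryogenesis abundant proteins, which protect cells that lose water, rose with drought at 7 of 8 (limma, Benjamini-Hochberg adjusted p under 0.05, against 23.5% of all kept loci). By line they had a median difference of 0.25 and 0 at an unadjusted p under 0.05. The 9 loci listed as clade A PP2C phosphatases, brakes on abscisic acid signalling, had a median line difference of 0.25. One of them, LOC_Os05g38290, differed by 1.36 (interval 0.40 to 2.32). It was at 3.69, 5.46 and 5.52 under drought and 4.22 and 2.96 when well-watered in IR64-Tr-E2, against 4.35, 4.82 and 3.38 and then 1.40, 1.29 and 1.55 in IR64-WT, and no well-watered signal was well above background. The difference was 0.71 under drought, where the lines overlapped. The well-watered gap of 2.17 is therefore not a measured difference. This locus passed the filter only through the drought arrays of IR64-Tr-E2, where it was highest.

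Of the 10 kept loci listed as WRKY factors, 8 were higher and 2 lower, with a median of 0.31 and 2 at an unadjusted p under 0.05 (1.85% of all kept loci). These were LOC_Os06g44010 (0.72, interval 0.09 to 1.34) and LOC_Os09g25070 (0.68, interval 0.07 to 1.29). Of the 13 kept loci listed as regulators of root architecture, 9 were higher and 4 lower, with a median of 0.27. The 1 with an unadjusted p under 0.05, LOC_Os07g48560, differed by 1.22 (interval 0.12 to 2.31) and was well above background on 4 of 5 arrays of IR64-Tr-E2 and 2 of 6 of IR64-WT. It passed the filter only through the drought arrays of IR64-Tr-E2, where it was highest, so its value is a description. Of the 7 kept loci listed as other stress-responsive NAC factors, 5 were higher and 2 lower, with a median of 0.35, and LOC_Os03g04070 differed by -0.65 (interval -1.27 to -0.03).

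For the root label itself, 12 loci listed as nutrient and silicon transporters of roots were on the array. Between 7 and 11 of them were well above background on every array of a group, and in each group 1 was so on no array. Among those kept, LOC_Os04g43070 had an unadjusted p under 0.05, with a difference of 0.64 (interval 0.07 to 1.20). Medians of the remaining lists of this kind lay between -0.16 for DREB factors and 0.13 for reference genes, with tonoplast aquaporins, cellulose synthases and secondary wall NAC factors between them, and none held a locus with an unadjusted p under 0.05.

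Loci listed as photosynthesis genes of green tissue differed by line mainly in the well-watered arrays, without passing the test. The log2 of the summed signal of the 11 on the array was 9.69 and 10.25 on the well-watered IR64-Tr-E2 arrays and 14.63, 11.29 and 10.65 on those of IR64-WT. Under drought it ranged from 8.17 to 15.32 in IR64-Tr-E2 and from 7.72 to 15.70 in IR64-WT. Well-watered IR64-Tr-E2 thus lay below IR64-WT, and under drought each line held 1 array far above the others. Of the 11, 4 were well above background on no well-watered array of IR64-Tr-E2, and 0 on no well-watered array of IR64-WT.

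All 9 kept photosynthesis loci had a lower line difference, with a median of -0.82 over both treatments, 0.57 under drought and -2.41 when well-watered. LOC_Os12g19470 was at 2.89 and 2.2 when well-watered in IR64-Tr-E2, not well above background, and at 7.07, 6.36 and 6.34 in IR64-WT, at least 5.29-fold higher in IR64-WT. LOC_Os12g17600 was at 4.26 and 4.24 against 7.62, 6.50 and 6.56, at least 6.24-fold higher in IR64-WT. Neither had an unadjusted p under 0.05 over both treatments. The part of green tissue or of light on the roots in the well-watered line difference was not tested.

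**Figure D5:**
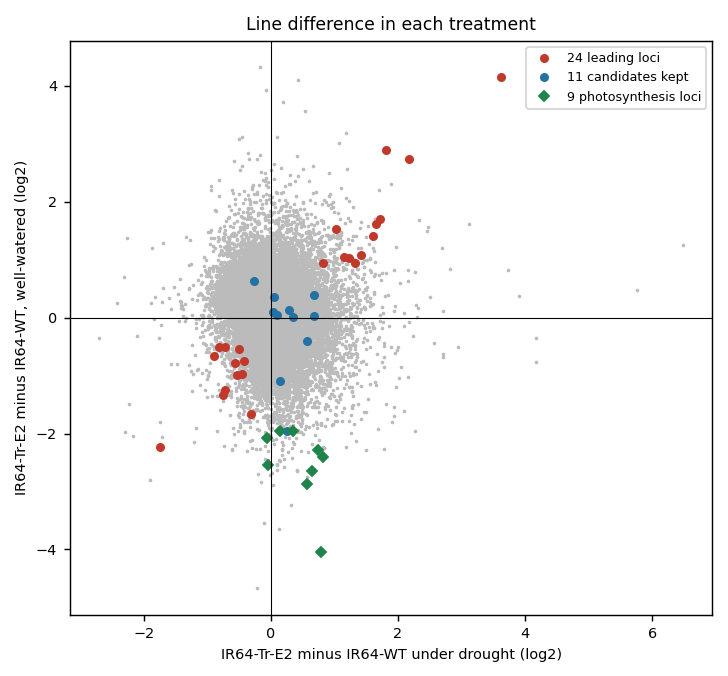
The line difference under drought (x axis, log2) against that when well-watered (y axis, log2) at all 26161 kept loci (grey), with the 24 leading loci in red, the 11 kept candidates in blue and the 9 photosynthesis loci in green. The grey cloud shows little relation between the axes (r = -0.09), and the photosynthesis loci lie low, with a median of -2.41 when well-watered.

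The study's own lists of drought-response genes were drawn from these arrays, so their direction in either treatment is not independent evidence. The study described them by how strongly genes rose under drought in each line. The line difference over both treatments is another measure and cannot be set against their names. Of the 394 listed as downregulated, 374 rose with drought (limma, Benjamini-Hochberg adjusted p under 0.05, against 23.5% of all kept loci). Of the 127 kept upregulated ones, 62 did. Of the 143 loci the study lists as upregulated, 127 were kept, 8 higher and 8 lower at an unadjusted p under 0.05 (against 1.40% and 0.459% of all kept loci). The median of those kept was 0.70 under drought, -1.18 in the well-watered arrays and -0.21 over both. Of the 394 it lists as downregulated, all were kept, 9 were higher and 1 lower at an unadjusted p under 0.05 (against the same shares), and their median was 0.06 under drought, 0.46 when well-watered and 0.21 over both. None of either list passed after Benjamini-Hochberg adjustment in limma.

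Among the upregulated list, LOC_Os02g54980, a putative pheophorbide a oxygenase of chlorophyll breakdown, was lower in IR64-Tr-E2. It was at 3.58, 4.28 and 3.93 under drought and 4.43 and 4.5 when well-watered in IR64-Tr-E2, against 4.67, 4.35 and 4.23 and then 5.95, 5.79 and 5.86 in IR64-WT. The well-watered arrays were apart and the drought arrays overlapped, with a difference of -0.90 (interval -1.43 to -0.36). Its interaction, the drought minus the well-watered line difference, was 0.91 and did not pass the test. LOC_Os11g28210, a putative retrotransposon protein, was higher by 2.03 (interval 0.67 to 3.39), at 9.58, 7.87 and 7.07 under drought against 5.49, 6.13 and 5.54. It overlapped when well-watered, at 7.38 and 6.17 against 7.25, 3.42 and 5.16. Over the 43 kept loci described as transposons or retrotransposons, 22 were higher and 21 lower, and the median was 0.09. At an unadjusted p under 0.05, 3 were higher and 0 lower (against 1.40% and 0.459% of all kept loci). One of the 3, LOC_Os12g05290, passed the filter only through the drought arrays of IR64-Tr-E2, where it is high, so this count is a description.

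Among the downregulated list, LOC_Os02g54820, a putative trehalose-6-phosphate synthase, was higher by 0.80 (interval 0.22 to 1.38). It was at 8.53, 8.28 and 8.06 under drought and 6.59 and 7.10 when well-watered in IR64-Tr-E2, against 7.76, 7.21 and 8.18 and then 6.25, 5.65 and 5.37 in IR64-WT. The lines were apart when well-watered and overlapped under drought by 1 array. Its interaction was -0.51 and did not pass the test. LOC_Os06g19800, with a BURP domain, was higher by 0.78 (interval 0.18 to 1.37). The difference at LOC_Os03g48320, a putative disease resistance protein, was -1.14 (interval -2.03 to -0.25). It was close to the same in both lines under drought, at 6.22, 5.71 and 6.30 against 6.11, 6.06 and 6.37, and was at 1.13 and 2.19 against 4.20, 3.91 and 4.20 when well-watered. Neither of these IR64-Tr-E2 signals was well above background, nor was 1 of the 3 of IR64-WT, and the bound allows no fold, so the well-watered gap is not a measured difference.

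Loci with an unadjusted p under 0.05 lay on all 12 chromosomes. The share of kept loci with an unadjusted p under 0.05 lay between 1.37% and 2.58% on the 12 chromosomes, and the median line difference between -0.0045 and 0.020. On chromosome 12, which holds OsNAM12.1, it was 2.58%, with 33 higher and 10 lower, and on chromosome 11 it was 2.58% as well.

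No probe was well above background on every array of one line and on no array of the other. With at most 1 array of the other line allowed, 1 probe met this for IR64-Tr-E2, LOC_Os02g06600, and 0 for IR64-WT. With at most 2 allowed, there were 17 for IR64-Tr-E2 and 4 for IR64-WT, of 52901 probes. The first 17 include LOC_Os07g32710.

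Across the kept loci, the line difference under drought and that when well-watered were weakly related (Pearson r = -0.09, Spearman rho = -0.14, across 26161 loci, which are not independent replicates), and 43.5% of loci had the same sign in both. The 2 differences come from different arrays. No locus passed the test in either treatment within the fit of 4 group means (limma, 0 after Benjamini-Hochberg adjustment, 0%), where 273 had an unadjusted p under 0.05 under drought (1.04%) and 1086 when well-watered (4.15%).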

How the data were processed

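The authors deposited, for each array, the Agilent Feature Extraction output of a custom 1-colour rice array (62976 spots, Cy3). Per the file headers these signals are linear Cy3 intensities from which the scanner software had already taken the background. The software is version 11.0 per the labels and 11.5.1.1 per the file headers. The authors also deposited a table of quantile normalized log2 values centred on each probe, used here as an alternative. From the intensities, control and outlier spots were left out (0 saturated), spots of a probe were averaged on the log2 scale, and the 23 arrays were quantile normalized together. Loci are those in the files. The line difference was fitted with limma 3.58.1 (lmFit and eBayes, two-sided) in R 4.3.3 on 11 arrays with treatment as an additive term, and adjusted by Benjamini-Hochberg over 26161 loci. Precision is limited by how many arrays there are. The fit was tested on simulated data.

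The members and gene lists were chosen with earlier results of these data known. Named are OsNAM12.1, the 15 candidates, the 12 loci of smallest p in each direction whose lines did not overlap in either treatment, and up to 4 loci of smallest p in each list (shown where the unadjusted p was under 0.05, or as photosynthesis examples). LOC_Os12g35470 and LOC_Os01g62740 were added after their values were seen. A lower bound sets the dim group, on each array, at the lowest signal well above background or at its own signal, whichever is higher.

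Alternatives were a shift to the 75th percentile, quantile normalization of the 11 arrays alone, normexp background correction (offset 50), no filter, a filter on the mean, all 23 arrays in the fit, equal weight of the treatments, slide or replicate number as a block, array weights, the deposited log2 values, a trended robust spread, each treatment alone, 2 IR64-WT arrays of low detection left out, each array left out in turn, and, chosen after seeing the data, both well-watered replicate 1 arrays left out.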

Additional observations from a re-analysis of the deposited data

How the results depend on the processing

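Under 25 of 29 alternatives 0 loci passed after Benjamini-Hochberg adjustment, as in the fit reported. With limma's array weights 8 loci passed, and 1 by the methods' rule, but the weights gave 9.51 to the third drought array and 5.63 to the third well-watered array of IR64-Tr-E2. The drought arrays alone gave 1 and 1, a locus kept only through the group in which it is high. With both well-watered replicate 1 arrays left out, 4 passed, and 3 by the methods' rule. Leaving out each array in turn gave 0 to 3 loci, and 0 to 1 by the methods' rule, the most without well-watered IR64-WT replicate 1. The replicate block gave 0 loci and an OsNAM12.1 difference of 0.60. Replicate numbers did not pair the arrays, since deviations of same-numbered arrays of different groups correlated between -0.40 and 0.32 (median -0.12, 15 pairs). OsNAM12.1 lay between 0.21 and 0.74 under all alternatives.

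Probes measured in one line only numbered 12 with the flag for a positive and significant signal, all in IR64-WT, 0 to 1 with an array left out and 3 with both well-watered replicate 1 arrays left out. The 24 leading loci kept their sign, but many differences shrank under some settings that used all groups. The smallest was 1.22 at LOC_Os07g32710 (3.86 in the fit reported), 0.66 at LOC_Os01g24820 (1.72) and 1.13 at LOC_Os03g19610 (2.42). At LOC_Os03g27810 it was 1.24 (1.64), and at LOC_Os01g23710 -0.34 (-1.96). Several candidates changed sign, most of them near 0, but also OsWAK125 (-0.74 in the fit reported) and OsDR12.1 (-0.41). OsCDP12.1 was at -0.056 with slide as a block, -0.12 with array weights and -0.055 without both well-watered replicate 1 arrays, where OsWAK125 was at 0.18. Without the 2 IR64-WT arrays of low detection OsARF12.1 was at -0.55 and OsGDP12.1 at -0.11. On the drought arrays alone OsPOLE1912.1 was at -0.27, OsWAK125 at 0.25, OsDR12.1 at 0.15 and LOC_Os07g08150, an early light-induced protein of the study's lists, at 0.037, and on the well-watered arrays alone OsGDP12.1 at -0.40. With each array left out in turn, the ranges were -0.14 to 0.46 for OsARF12.1, -0.19 to 0.32 for OsGDP12.1, -0.89 to 0.051 for OsDR12.1, -0.036 to 0.44 for OsAFC212.1, -0.027 to 0.19 for OsCDP12.1, -0.14 to 0.40 for OsPOLE1912.1, -0.063 to 0.23 for OsEP112.1 and -1.08 to 0.067 for OsWAK125. The cause was not tested.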
